A study of Mus musculus with 15 samples.

Results

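The small proline-rich genes studied here are 10 members of 1 gene family of mouse, Sprr1a, Sprr2a, Sprr2b, Sprr2d, Sprr2e, Sprr2f, Sprr2g, Sprr2h, Sprr2i and Sprr2k, followed in the uterus after an oestrogen. They were chosen by name: a probe belonged to a member when the array's gene name, or the current symbol of its RefSeq accession, was that member. Of the 10 members 9 had a probe, with 10 probes in all because Sprr2a had 2, and 8 were tested among 20302 genes tested in all. Sprr2h was not well above background on any of the 15 arrays and was not tested. Sprr2i had no probe of its own, and its RefSeq accession is listed on the Sprr2e probe.

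Uterine RNA of ovariectomized mice of the outbred CD-1 strain was measured on 15 one-colour Agilent arrays in 5 groups of 3. The treated groups were E2 24 h and E3 24 h, and, collected earlier, E2 2 h and E3 2 h, all given 250 ng of the named oestrogen in 100 µl of saline. The vehicle group was given 100 µl of saline. The labels give only the short forms E2 and E3, usual for estradiol and for estriol, which has 1 more hydroxyl on its D ring. All 5 groups lack ovaries, and each sample is RNA of the whole uterus. The sources used here do not give the collection time of the vehicle uteri, and do not say whether the 3 samples of a group are separate animals, so the p-values rest on a spread between samples that may be technical.

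Small proline-rich proteins are short proteins built from proline-rich repeats. In the epidermis transglutaminases cross-link them, with loricrin, involucrin and other proteins, into the cornified envelope, the tough layer beneath the membrane of dying squamous cells. The genes lie side by side in the epidermal differentiation complex, and Sprr2 transcripts are known as oestrogen-responsive transcripts of the mouse uterine epithelium, which is a simple epithelium and does not cornify. In the RefSeq annotation of GRCm38.p6 the 13 Sprr2 genes and pseudogenes occupied chr3:92215835-92433927, a span of 218 kb, and Sprr1a lay at chr3:92483954-92485881. Sprr2g is annotated there as a transcribed pseudogene, and the locus that the array calls Sprr2a corresponds to Sprr2a1, Sprr2a2 and Sprr2a3.

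Levels are given as the log2 of the background-subtracted signal minus the array's own 75th percentile, so that 0 is a spot as bright as the 75th percentile of its array. They compare arrays for 1 probe and do not compare probes with each other. A member was called when limma gave an adjusted p under 0.05 over all genes tested. Over the arrays the 75th percentile lay between 997 and 1737 signal units, and 63.0% to 80.0% of probes were well above background. Replicate 2 of E3 24 h had the fewest, 63.0%, and stood apart in the values of nearly every member. Results of the members that rest on it are given with and without it.

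Sequence sets how separately the members can be read. The Sprr2b, Sprr2e and Sprr2k probes share long stretches of the proline-rich repeat, and are printed because a transcript of 1 of these genes could bind the probe of another. Capitals mark bases in runs of at least 17 that another small proline-rich probe also holds.
Sprr2b probe: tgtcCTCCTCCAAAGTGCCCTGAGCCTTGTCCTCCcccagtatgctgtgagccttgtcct
Sprr2e probe: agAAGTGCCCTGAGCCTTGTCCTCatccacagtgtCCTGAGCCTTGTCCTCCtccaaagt
Sprr2k probe: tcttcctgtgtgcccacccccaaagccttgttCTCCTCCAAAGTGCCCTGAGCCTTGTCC
Per the files these probes lie on mm7 at chr3:92423564-92423623 (Sprr2b), chr3:92458962-92459021 (Sprr2e) and chr3:92539423-92539482 (Sprr2k), all on the plus strand. Of their 60 bases 31, 39 and 28 fell in shared runs for Sprr2b, Sprr2e and Sprr2k in that order. The longest shared run was 28 bases between Sprr2b and Sprr2k, 22 between Sprr2b and Sprr2e and 20 between Sprr2e and Sprr2k, and all 3 probes held AAGTGCCCTGAGCCTTGTCC. The probes of Sprr1a, Sprr2a, Sprr2d, Sprr2f, Sprr2g and Sprr2h shared no run of 17 bases with another probe of the family. Probes were compared with probes and not with whole transcripts. Whether the transcript of another member binds these probes was therefore not tested. The values of Sprr2b, Sprr2e and Sprr2k are therefore uncertain as values of separate genes, and how far their signals mix was not tested.

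The first comparison asked how the family responded to E2 after 24 h. Of the 8 members tested 7 were higher in E2 24 h uteri than in vehicle uteri and 0 were lower. The one not called was Sprr2a at its brighter probe, while its dimmer probe was higher, as given below. Of all genes tested 20.9% were called higher and 22.4% lower. The changes of the 8 members had a median of 2.42 on the log2 scale, against -0.02 over all genes tested, and those called ran from 1.48 for Sprr2b to 3.75 for Sprr2f.

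Sprr2f, known in mouse as an oestrogen-responsive gene of the uterus, stood at 5.17, 4.796 and 5.72 in the 3 E2 24 h uteri, against 0.87, 2.14 and 1.43 in the 3 vehicle uteri. All 3 E2 24 h arrays lay above all 3 vehicle arrays. The difference was 3.75 ± 0.90 (SE) on the log2 scale, 13.5-fold (adjusted p = 0.00529).

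Sprr2d, whose probe shares no long run with the other family probes, stood at -2.83, -2.93 and -2.56 in E2 24 h uteri, against -6.79, -6.95 and -5.70 in vehicle uteri. All 3 E2 24 h arrays lay above all 3 vehicle arrays. The difference was 3.71 ± 0.67 (SE), 13.1-fold (adjusted p = 9.17e-04). The vehicle signals of this probe, 15.4, 13.1 and 24.9 units, were low, though well above background on all 3 arrays. Over the alternative fits the difference ran from 1.88 to 4.14, so the size of its changes from vehicle is uncertain.

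Sprr1a, a precursor protein of the cornified envelope, stood at 0.48, 0.19 and -0.11 in E2 24 h uteri, against -3.86, -3.78 and -2.74 in vehicle uteri. No E2 24 h array overlapped the vehicle arrays. The difference was 3.65 ± 0.68 (SE), 12.5-fold (adjusted p = 0.00119).

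The other Sprr2 genes called moved by less in this fit. Sprr2g stood at -0.74, -0.89 and -0.09 in E2 24 h uteri, against -3.49, -3.002 and -2.76 in vehicle uteri, a difference of 2.51 ± 0.65 (SE, adjusted p = 0.00796). Sprr2e stood at 0.82, 0.74 and 1.39 in E2 24 h uteri, against -1.56, -1.12 and -1.32 in vehicle uteri, a difference of 2.32 ± 0.63 (SE, adjusted p = 0.0108). In both genes all E2 24 h arrays lay above all vehicle arrays. Sprr2k stood at 0.53, 0.53 and 0.99 in E2 24 h uteri, against -1.52, -1.02 and -0.91 in vehicle uteri, a difference of 1.83 ± 0.53 (SE, adjusted p = 0.0141). Sprr2b stood at 1.47, 1.47 and 1.98 in E2 24 h uteri, against -0.29, 0.29 and 0.47 in vehicle uteri, a difference of 1.48 ± 0.52 (SE, adjusted p = 0.0371). These groups did not overlap either, so that 7 of 8 members had all E2 24 h arrays above all vehicle arrays, an order found in 27% of all genes tested. In whole uterus more epithelial cells and more RNA per cell cannot be told apart. All 3 vehicle arrays were on 1 slide that held no other group, so slide and the difference from vehicle cannot be told apart.

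**Figure D1:**
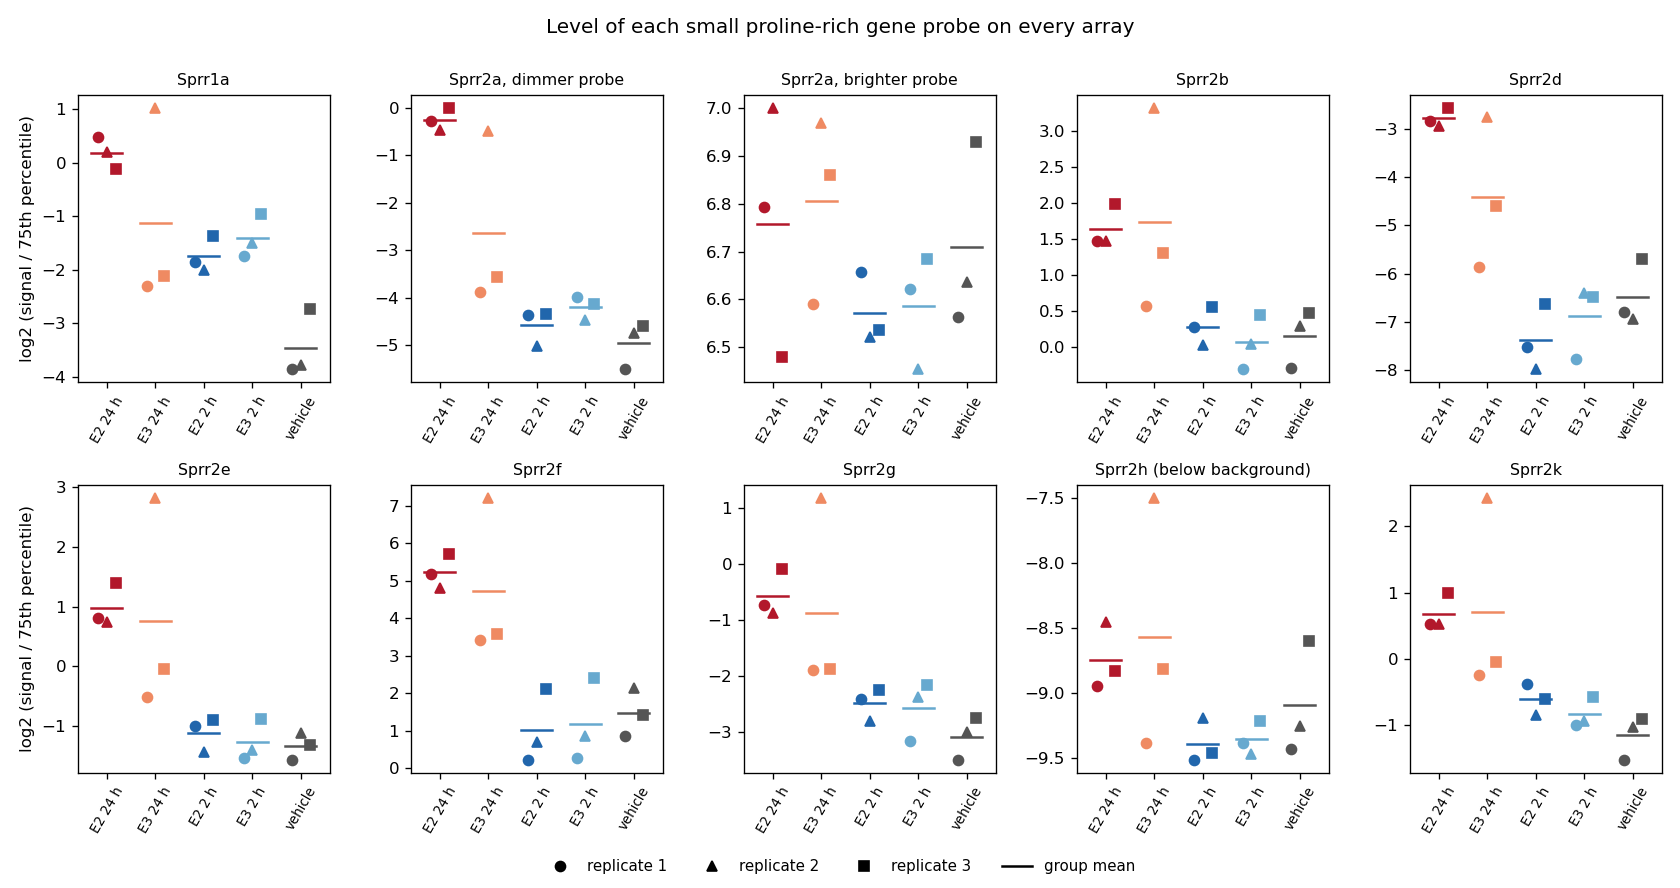
Scaled log2 level (vertical axis, log2 of signal over the array's 75th percentile) of each of the 10 member probes on every array, by group along the horizontal axis; marker shapes are replicates and lines group means, and each panel has its own scale. E2 24 h arrays stand above vehicle arrays in 8 panels, E3 24 h replicate 2 (triangle) stands above the other E3 24 h arrays in all 10, and the Sprr2h probe was not well above background on any array.

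The 2 probes of Sprr2a disagreed. The brighter probe stood at 6.79, 7.001 and 6.48 in E2 24 h uteri, against 6.56, 6.64 and 6.93 in vehicle uteri. The arrays of both groups were mixed, and the difference was 0.05 with a 95% interval of -0.28 to 0.38 (adjusted p = 0.82). The signal of this probe ran from 115891 to 161752 units over the 15 arrays, and was flagged as saturated on 0 of them. Its difference depended on the scaling, and was -0.36 and called under quantile normalization. Whether so bright and steady a probe could register a rise was not tested. The dimmer probe stood at -0.27, -0.47 and -0.00 in E2 24 h uteri, against -5.51, -4.75 and -4.59 in vehicle uteri. Here every E2 24 h array lay above every vehicle array, and with each probe fitted on its own the difference was 4.70 ± 0.66 (SE), 26.0-fold (adjusted p = 2.08e-04), larger than that of any other member probe in this comparison. Both probes carry the RefSeq accession of Sprr2a, and neither shares a run of 17 bases with another probe of the family. The brighter probe lists 2 RefSeq accessions and the dimmer probe 1. Which of the probes reads Sprr2a was not tested, and the counts of members use the brighter one.

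After 24 h of E3, 6 of the 8 members tested were higher than in vehicle uteri and 0 were lower, against 9.6% of all genes tested called higher and 10.7% called lower. The 6 were Sprr1a, Sprr2d, Sprr2e, Sprr2f, Sprr2g and Sprr2k, Sprr2b missed the threshold, and Sprr2a at its brighter probe was not called. The median change of the 8 members was 2.08, against -0.00 over all genes tested. The 3 E3 24 h arrays spread widely in each of the 7 members other than Sprr2a. They also spread widely at the dimmer Sprr2a probe (SD 1.87), but not at the brighter one (SD 0.20).

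Sprr2f stood at 3.41, 7.19 and 3.57 in E3 24 h uteri, against 0.87, 2.14 and 1.43 in vehicle uteri. Replicates 1 and 3 lay between the vehicle and the E2 24 h arrays, and replicate 2 lay above every other array of the study. The difference was 3.25 ± 0.90 (SE, adjusted p = 0.0272) with all arrays and 2.02 ± 0.65 (SE, adjusted p = 0.0673) without replicate 2. Each SE pools the spread of all groups in the fit. The SD of Sprr2f was 2.14 in E3 24 h and 0.64 in vehicle, so the pooled SE with all arrays understates the spread of E3 24 h. In a fit of only E3 24 h and vehicle, 0 of the 8 members were called, as were 0.0443% of all genes tested.

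Sprr1a stood at -2.30, 1.02 and -2.12 in E3 24 h uteri, against -3.86, -3.78 and -2.74 in vehicle uteri. All 3 E3 24 h arrays lay above the vehicle arrays, and only replicate 2 was as high as E2 24 h arrays. The difference was 2.33 ± 0.68 (SE, adjusted p = 0.0336) with all arrays and 1.25 ± 0.34 (SE, adjusted p = 0.0410) without replicate 2.

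Sprr2d stood at -5.87, -2.75 and -4.60 in E3 24 h uteri, against -6.79, -6.95 and -5.70 in vehicle uteri. Replicate 1 of E3 24 h lay below 1 vehicle array, so the groups overlapped. The difference was 2.07 ± 0.67 (SE, adjusted p = 0.0459) with all arrays and 1.24 ± 0.55 (SE, adjusted p = 0.152) without replicate 2.

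Sprr2g stood at -1.90, 1.16 and -1.88 in E3 24 h uteri, against -3.49, -3.002 and -2.76 in vehicle uteri, a difference of 2.21 (adjusted p = 0.0335), and of 1.19 without replicate 2 (adjusted p = 0.0416). Sprr2e stood at -0.52, 2.81 and -0.04 in E3 24 h uteri, against -1.56, -1.12 and -1.32 in vehicle uteri, a difference of 2.09 (adjusted p = 0.0378), and of 1.06 without replicate 2 (adjusted p = 0.0316). In both genes every E3 24 h array lay above every vehicle array. Sprr2k stood at -0.24, 2.42 and -0.05 in E3 24 h uteri, against -1.52, -1.02 and -0.91 in vehicle uteri, a difference of 1.86 (adjusted p = 0.0293), and of 1.00 without replicate 2 (adjusted p = 0.0217). Sprr2b stood at 0.57, 3.31 and 1.31 in E3 24 h uteri, against -0.29, 0.29 and 0.47 in vehicle uteri, a difference of 1.57 (adjusted p = 0.0517), and of 0.78 without replicate 2 (adjusted p = 0.116). The groups did not overlap for Sprr2k or Sprr2b, and 6 of 8 members had all 3 E3 24 h arrays above all 3 vehicle arrays, an order found in 16.9% of all genes tested. The dimmer Sprr2a probe stood at -3.87, -0.48 and -3.56 in E3 24 h uteri, above its 3 vehicle arrays by a mean of 2.31 (adjusted p = 0.0293), and by 1.24 without replicate 2 (adjusted p = 0.0253).

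Without replicate 2 the number of members called higher in E3 24 h was 4 and the median change 1.12. Of all genes tested 11.2% were then called in either direction. With scan day as a fixed block the number was 0 and the median 1.61, where 11.5% of all genes were called. Adjusted p-values in that fit ran from 0.0513 to 0.119 over Sprr1a, Sprr2b, Sprr2d, Sprr2e, Sprr2f, Sprr2g and Sprr2k. The number was 0 without vehicle replicate 1, where 6.83% of all genes were called. It was 0 without vehicle replicate 2, where 7.21% were.

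**Figure D2:**
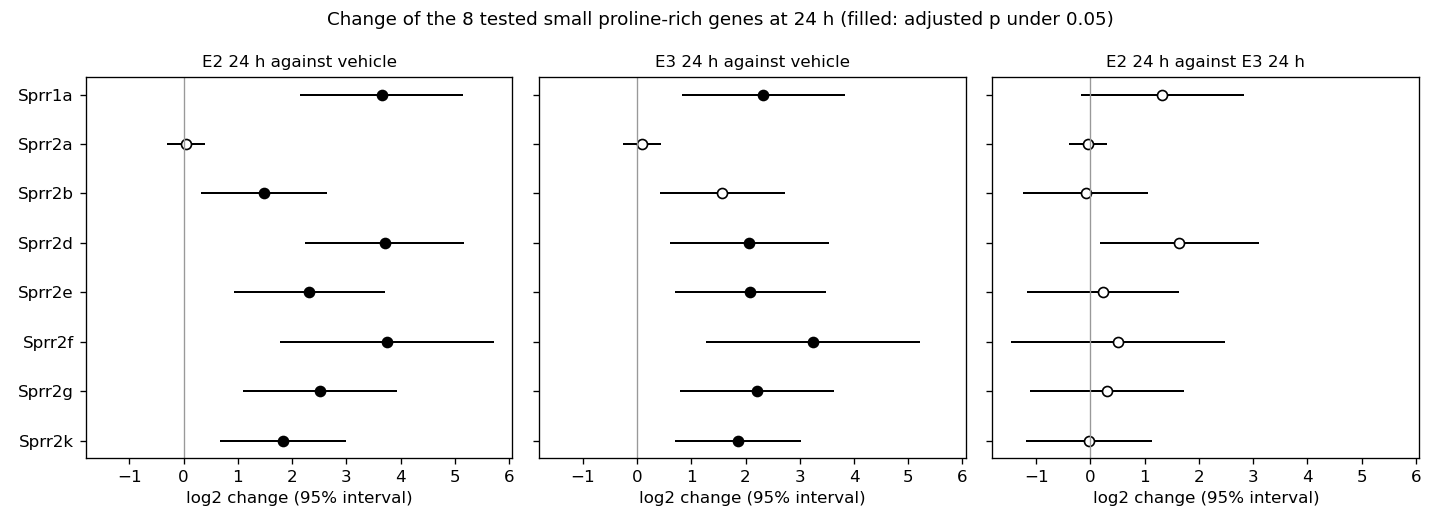
Log2 change (horizontal axis) of the 8 tested members with its 95% interval, for E2 24 h against vehicle, E3 24 h against vehicle and E2 24 h against E3 24 h; filled circles have an adjusted p under 0.05 and Sprr2a is read at its brighter probe. In the 3 panels 7, 6 and 0 members are filled.

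E2 and E3 were given at the same dose, so the oestrogens were compared at each time, which makes 2 comparisons of the pair, each adjusted over all genes tested. At 24 h none of the 8 members was called different, with 0 higher and 0 lower in E2 24 h than in E3 24 h uteri, against 15.6% of all genes tested that were called in either direction; at an unadjusted p under 0.05 only Sprr2d passed, and 6070 of all genes did. The differences, E2 24 h minus E3 24 h, had a median of 0.27. That of Sprr2d was 1.64, with a 95% interval of 0.19 to 3.09 (adjusted p = 0.121), and that of Sprr1a was 1.32, with an interval of -0.16 to 2.80 (adjusted p = 0.22). For Sprr2f it was 0.50, with an interval of -1.45 to 2.46, and for Sprr2b -0.09, with an interval of -1.23 to 1.05. These intervals are wide, and they do not show that the oestrogens act alike on these genes.

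The E3 24 h arrays lay on both sides of the E2 24 h arrays. Replicate 2 of E3 24 h lay above all 3 E2 24 h arrays for 6 of the 8 members. Replicates 1 and 3 each lay below all 3 E2 24 h arrays for 7 of the 8, and above all 3 vehicle arrays for 6 and 7 of the 8 in that order. Without replicate 2 the E2 24 h uteri were higher in 5 members and lower in 0, with a median difference of 1.29, where 20% of all genes tested were called. The 5 were Sprr2d (2.47, adjusted p = 0.0105), Sprr1a (2.40, adjusted p = 0.00126), Sprr2g (1.32, adjusted p = 0.0177), Sprr2e (1.26, adjusted p = 0.00838) and Sprr2k (0.83, adjusted p = 0.0244), whose difference was -0.03 with all arrays. Sprr2f (1.74, adjusted p = 0.0821) and Sprr2b (0.70, adjusted p = 0.131) were not called. Replicates 1 and 3 of E3 24 h were the only arrays on slide 6. In every comparison without replicate 2, that slide and the E3 24 h group therefore cannot be told apart.

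Leaving out another E3 24 h array gave 0 calls, with a median difference of -0.18 without replicate 1 and of -0.12 without replicate 3. Replicate 2 of E3 24 h was on slide 2, scanned on day 2, with 1 other array, E2 2 h replicate 1. That array was not high in the family: its mean centred Sprr2 level was -0.88, between -1.12 and -0.46 for the other E2 2 h arrays. On scan day 1 alone 5 members were called higher in E2 24 h, with a median of 1.38, where 14.7% of all genes tested were called. That fit also leaves out replicate 2 of E3 24 h. In a fit of the 12 treated arrays with a fixed slide term 0 were called, as were 0% of all genes tested. The median turned to -1.71 there, where no slide held both 24 h groups. The part of slide, of scan day and of the animal in the values of replicate 2 cannot be told apart.

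At its dimmer probe Sprr2a gave a difference that was called with all arrays. The level was -0.27, -0.47 and -0.00 in E2 24 h uteri, against -3.87, -0.48 and -3.56 in E3 24 h uteri, a difference of 2.39 with a 95% interval of 0.95 to 3.82 (adjusted p = 0.0314 with each probe fitted on its own). Replicate 2 of E3 24 h lay just below the lowest E2 24 h array. Without it the difference was 3.47 (adjusted p = 1.34e-04).

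**Figure D3:**
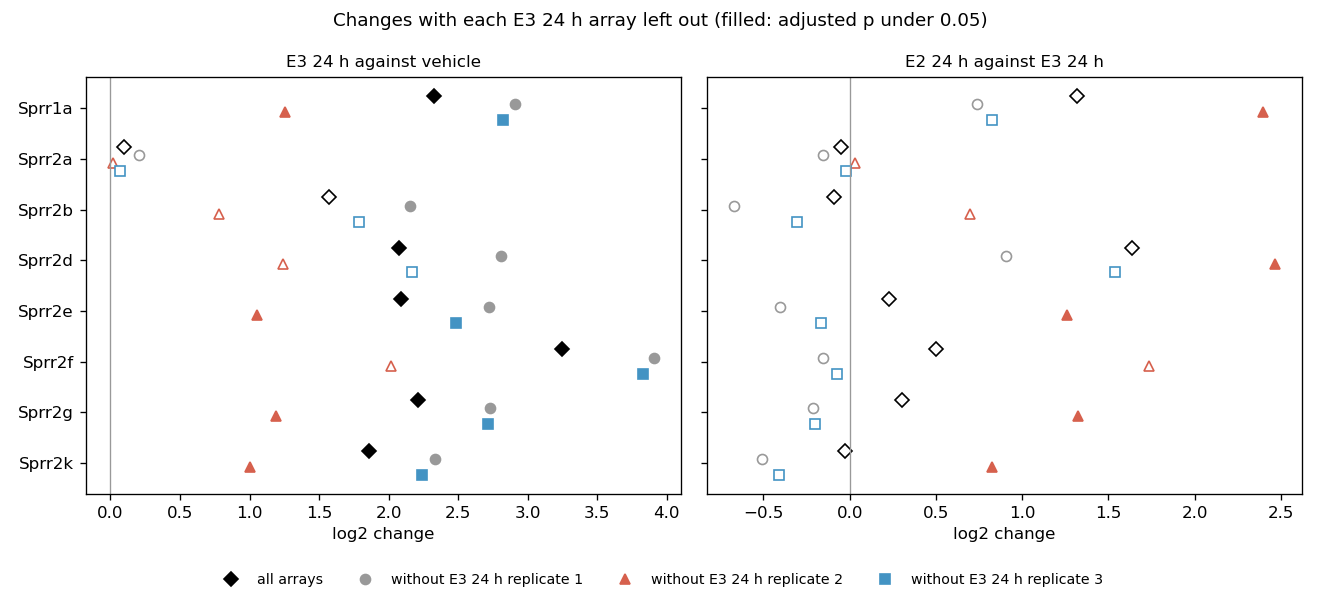
Log2 change (horizontal axis) of the 8 tested members for E3 24 h against vehicle and for E2 24 h against E3 24 h, with all arrays and with each E3 24 h array left out in turn; filled symbols have an adjusted p under 0.05. Leaving out replicate 2 (triangles) lowers the differences from vehicle and raises those of E2 24 h against E3 24 h, where it fills 5 of 8 members and the other settings fill 0.

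After 2 h of E2, 0 of the 8 members were called against vehicle, although 16.3% of all genes tested were called higher and 22.2% lower at that time. By limma at an unadjusted p under 0.05 only Sprr1a passed, and the median change of the members was 0.18, against -0.12 over all genes tested. After 2 h of E3, 1 of the 8, Sprr1a, was called higher and 0 were called lower, against 16.9% of all genes tested called higher and 23% called lower. The median change of the members was -0.02, against -0.14 over all genes tested.

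Sprr1a was thus the member with the largest difference from vehicle at 2 h under both oestrogens. It stood at -1.86, -2.0 and -1.38 in E2 2 h uteri, against -3.86, -3.78 and -2.74 in vehicle uteri, a difference of 1.71 ± 0.68 (SE, adjusted p = 0.066). It stood at -1.74, -1.49 and -0.96 in E3 2 h uteri, against the same vehicle arrays, a difference of 2.06 ± 0.68 (SE, adjusted p = 0.0300). All 3 arrays of each oestrogen lay above all 3 vehicle arrays. The E2 2 h difference was called without the E3 24 h group in the fit (adjusted p = 0.0016). The E3 2 h call was lost without vehicle replicate 1 (adjusted p = 0.092), without vehicle replicate 2 (adjusted p = 0.0874), without E3 2 h replicate 2 (adjusted p = 0.0631) and without E3 2 h replicate 3 (adjusted p = 0.096).

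No Sprr2 member was called at 2 h with all arrays, and whether their changes differ from that of Sprr1a was not tested. Sprr2f stood at 0.23, 0.70 and 2.12 in E2 2 h uteri and at 0.28, 0.86 and 2.40 in E3 2 h uteri, against 0.87, 2.14 and 1.43 in vehicle uteri. These arrays were mixed, and both differences had intervals that held 0. Sprr2d stood at -7.52, -7.99 and -6.63 in E2 2 h uteri and at -7.78, -6.40 and -6.49 in E3 2 h uteri, against -6.79, -6.95 and -5.70 in vehicle uteri. It was well above background on 1 of 3 E2 2 h arrays and on 2 of 3 E3 2 h arrays, so its level there is close to the limit of what the array measured. Sprr2k had all 3 E2 2 h arrays, at -0.38, -0.85 and -0.60, above the vehicle arrays, with a difference of 0.54 (adjusted p = 0.455), which was called without E3 24 h replicate 2 in the fit (adjusted p = 0.0480). Of the 8 members 2 had all E2 2 h arrays above all vehicle arrays, against 22.5% of all genes tested, and 1 had all E3 2 h arrays above them, against 21.9%.

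Between the oestrogens at 2 h, 0 of the 8 members and 0% of all genes tested were called by limma, and 737 of the 20302 genes had an unadjusted p under 0.05. The differences of the members, E2 2 h minus E3 2 h, ran from -0.49 for Sprr2d to 0.23 for Sprr2k. For Sprr2f the difference was -0.16, with a 95% interval of -2.11 to 1.79. For Sprr1a it was -0.35, with an interval of -1.83 to 1.14.

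The difference between the times was tested directly. Under E2, 6 of the 8 members were higher at 24 h than at 2 h and 0 were lower, against 29.7% of all genes tested called higher and 22.6% called lower, with a median change of 1.93. Sprr2f was higher by 4.21, 18.5-fold (adjusted p = 0.00183). Sprr2d was higher by 4.61 (adjusted p = 1.12e-04), but its probe was well above background on only 1 of 3 E2 2 h arrays, so the size of that change is uncertain. The dimmer Sprr2a probe, fitted on its own, was higher by 4.33 (adjusted p = 1.7e-04). Sprr1a was higher by 1.93 at 24 h than at 2 h (adjusted p = 0.0309). Sprr2e (2.09), Sprr2g (1.92) and Sprr2b (1.35) were also called, and Sprr2k was not (1.29, adjusted p = 0.0561). All 3 arrays at 24 h lay above all 3 at 2 h for 7 of 8 members, against 34.8% of all genes tested.

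Under E3, 6 of the 8 members were higher at 24 h than at 2 h and 0 were lower, against 29.1% of all genes tested called higher and 20.3% called lower, with a median change of 1.68. They were the 6 Sprr2 members other than Sprr2a, from 1.55 for Sprr2k to 3.55 for Sprr2f, and these 6 had all 3 arrays at 24 h above all 3 at 2 h, against 31.9% of all genes tested. Sprr1a was not among them, with a difference of 0.27 and a 95% interval of -1.22 to 1.75. Its 2 lower E3 24 h arrays, at -2.30 and -2.12, lay below all 3 E3 2 h arrays, and replicate 2, at 1.02, lay above them. Without replicate 2 of E3 24 h the count was 5, the median 0.78, and the difference of Sprr1a -0.81 (adjusted p = 0.0719). Of all genes tested 48.5% were called in that fit. With scan day as a fixed block the count was 2, where 44% of all genes were called. No slide held both E3 2 h and E3 24 h arrays, so slide and time cannot be told apart within E3.

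Whether the gap between E2 and E3 changed with time was tested as the E2 minus E3 difference at 24 h minus that at 2 h. None of the 8 members was called, against 5.99% of all genes tested, and Sprr2d, at 2.13 (adjusted p = 0.2), had the only unadjusted p under 0.05. Without replicate 2 of E3 24 h 2 members were called, Sprr1a (2.74, adjusted p = 0.00675) and Sprr2d (2.96, adjusted p = 0.0287), against 10.8% of all genes tested.

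The order of the 5 group means was similar among the tested Sprr2 members other than Sprr2a. E2 24 h and E3 24 h were the upper pair of groups for Sprr2b, Sprr2d, Sprr2e, Sprr2f, Sprr2g and Sprr2k, and these groups overlapped each other in all 6. E3 24 h had the higher mean in Sprr2b (1.73 ± 1.42, against 1.64 ± 0.29 in E2 24 h, SD, n = 3 each) and in Sprr2k (0.71 ± 1.48, against 0.68 ± 0.27 in E2 24 h), and E2 24 h in the other 4, as in Sprr2f (5.23 ± 0.46, against 4.73 ± 2.14 in E3 24 h). The E2 2 h, E3 2 h and vehicle groups overlapped in Sprr2b, Sprr2d, Sprr2e, Sprr2f and Sprr2g, and their neighbours in the order differed by less than the larger of their SDs. Sprr1a had a different order, with means of 0.19 ± 0.30 in E2 24 h, -1.13 ± 1.87 in E3 24 h, -1.40 ± 0.40 in E3 2 h, -1.75 ± 0.33 in E2 2 h and -3.46 ± 0.63 in vehicle (SD, n = 3 each). Its only neighbours that did not overlap were E2 2 h and vehicle. The dimmer Sprr2a probe had the same order of means as Sprr1a, and there E3 24 h overlapped neither E2 24 h nor E3 2 h. At the brighter Sprr2a probe E3 24 h had the highest mean and E2 2 h the lowest, and all neighbours overlapped.

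Across the 15 arrays the levels of Sprr2b, Sprr2d, Sprr2e, Sprr2f, Sprr2g and Sprr2k moved together, with Pearson correlations from 0.84 to 0.98 over their 15 pairs, and from 0.87 to 0.98 without replicate 2 of E3 24 h. These values describe arrays that share their groups and their scaling, and Sprr2b, Sprr2e and Sprr2k share the probe sequence printed above. The mean centred level of the 7 Sprr2 members tested was 1.31, 1.24 and 1.69 in E2 24 h, -0.00, 2.72 and 0.45 in E3 24 h, -0.88, -1.12 and -0.46 in E2 2 h, -1.28, -0.83 and -0.37 in E3 2 h and -1.18, -0.73 and -0.56 in vehicle. All 6 arrays at 24 h lay above all 9 others.

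Of the other small proline-rich genes on the array only Sprr2j was tested. Sprr2j, annotated by RefSeq as the transcribed pseudogene Sprr2j-ps, stood at 0.07, -0.54 and 0.66 in E2 24 h uteri, against -2.15, -2.12 and -2.07 in vehicle uteri, a difference of 2.17 (adjusted p = 0.0124). In E3 24 h uteri it stood at -1.16, 1.97 and -0.68, with a difference from vehicle of 2.16 (adjusted p = 0.0292), and of 1.19 without replicate 2 (adjusted p = 0.0316). Sprr3 was well above background on 0 of 15 arrays, Sprr4 on 7, and Sprr1b on 1, a vehicle array. Sprr2h stood between -9.51 and -7.50 over the 15 arrays, on none of which it was well above background, so these values are not read as a level.

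The genes that work with small proline-rich proteins in skin were read from a list of cornified envelope and epidermal differentiation complex genes, 45 named, 38 on the array and 13 tested. In E2 24 h uteri 1 was higher and 3 were lower than in vehicle uteri, with a median change of -0.12. Of all genes tested 20.9% were called higher and 22.4% lower. Desmoplakin, the desmosomal plaque protein encoded by Dsp, was higher by 0.60 (adjusted p = 0.0365). Trichohyalin, an envelope protein of hair follicles encoded by Tchh, was lower, with a change of -1.06 (adjusted p = 4.39e-04), as were Sbsn (-0.86) and Cnfn (-0.55). In E3 24 h uteri 0 were higher and 1, Tchh (-0.93, adjusted p = 0.00662), was lower, against 9.6% of all genes called higher and 10.7% lower.

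At 2 h, 0 of the 13 were higher and 2 lower in E2 2 h uteri than in vehicle uteri, where 22.2% of all genes were called lower, and 0 were higher and 5 lower in E3 2 h uteri, where 23% of all genes were. Of the transglutaminases, the cross-linking enzymes, 5 of the 7 on the array were tested. In E2 24 h uteri 2 were higher and 1 lower, where 20.9% of all genes were called higher and 22.4% lower. Tgm1, the membrane-bound enzyme of keratinocytes, was higher by 0.81 (adjusted p = 0.0197), Tgm2, the tissue transglutaminase, was higher by 0.67 (adjusted p = 0.00748), and Tgm4, the prostate enzyme, was lower, with a change of -1.14 (adjusted p = 0.00117). In E3 24 h uteri 0 were higher and 1, Tgm4 (-0.89, adjusted p = 0.0157), was lower, a call lost without replicate 2 (-0.77, adjusted p = 0.0543). There 9.6% of all genes were called higher and 10.7% lower with all arrays.

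The S100 genes, calcium-binding proteins encoded in the same chromosomal region, had 12 members tested. In E2 24 h uteri 5 were higher and 1 lower, where 20.9% of all genes were called higher and 22.4% lower. Among the 5 were S100a14 (1.24, adjusted p = 4.99e-04) and S100a11 (0.87, adjusted p = 1.81e-04). S100a7a was the lower one, with a change of -3.30 (adjusted p = 4.79e-06). In E3 24 h uteri 4 were higher and 1, again S100a7a (-2.04, adjusted p = 0.00177), was lower. There 9.6% of all genes were called higher and 10.7% lower. The call of S100a1 (0.62, adjusted p = 0.0369) was lost without replicate 2 (0.69, adjusted p = 0.0561), and those of S100a10, S100a13 and S100a7a were kept. The E2 24 h uteri differed from the E3 24 h uteri in 3 of the 12, where 15.6% of all genes were called. They were higher in S100a14 (1.04, adjusted p = 0.00552) and S100a16 (0.53, adjusted p = 0.0124) and lower in S100a7a (-1.26, adjusted p = 0.00471).

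Markers of epithelium were read beside the family. The 17 markers of simple uterine epithelium were all well above background on all 15 arrays. In E2 24 h uteri 5 were higher, 1 lower and 11 not called, with a median change of 0.64. Of all genes tested 20.9% were called higher there and 22.4% lower. Muc1, the luminal mucin, was higher by 2.75 (adjusted p = 5.47e-04) and the keratin Krt19 by 1.14 (adjusted p = 0.00169). Other markers went the other way. The mean of Wnt7a was -0.20 in E2 24 h against 0.81 in vehicle, that of Cdh1 0.98 against 1.76, and that of Foxa2 1.65 against 2.25. In E3 24 h uteri 2 markers were higher, 0 lower and 15 not called, where 9.6% of all genes were called higher and 10.7% lower. The higher ones were Muc1 (2.04, adjusted p = 0.0122) and Krt19 (0.74, adjusted p = 0.0383), and Krt19 was not called without replicate 2 (0.54, adjusted p = 0.133). The summed signal of the 17, as a multiple of the array's 75th percentile, ran from 231 to 316 in E2 24 h, from 214 to 366 in E3 24 h, from 139 to 155 in E2 2 h, from 125 to 204 in E3 2 h and from 149 to 200 in vehicle. A sum rests most on the brightest probes. The mean log2 level of the 17 ran from 1.42 to 2.07 in E2 24 h and from 1.18 to 2.21 in E3 24 h. It ran from 1.22 to 1.40 in E2 2 h, from 0.99 to 1.59 in E3 2 h and from 1.03 to 1.31 in vehicle.

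The highest of the 15 sums, 366, was that of replicate 2 of E3 24 h, against 229 and 214 for the other arrays of its group. Of the 13 markers of stratified squamous epithelium 9 were tested, and 1 was higher and 0 lower in E2 24 h uteri and 0 higher and 1 lower in E3 24 h uteri. Of all genes tested 20.9% were called higher and 22.4% lower in E2 24 h, and 9.6% and 10.7% in E3 24 h. Krt13 was higher in E2 24 h (0.69, adjusted p = 0.0128) and Krt4 lower in E3 24 h (-1.58, adjusted p = 0.0424), a call lost without replicate 2 (-1.45, adjusted p = 0.117). Krt4 was well above background on 0 of 3 E3 24 h arrays and on 3 of 3 vehicle arrays, so the size of that change is uncertain. At 2 h Krt4 was the 1 marker of the 9 called higher, by 4.12 in E2 2 h and 3.86 in E3 2 h, and 2 and 1 were lower. Of all genes tested 16.3% and 16.9% were called higher at 2 h, and 22.2% and 23% lower. The desmogleins Dsg1a and Dsg3 were above background on 0 arrays, while 8 of the 13 markers were above background on all 15. The summed signal of the 9 ran from 2.87 to 16.7 in E2 24 h, from 3.70 to 8.06 in E3 24 h and from 3.66 to 6.23 in vehicle, and it was 5.02 in replicate 2 of E3 24 h. The part of the share of epithelium in the changes of the members was not tested.

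**Figure D4:**
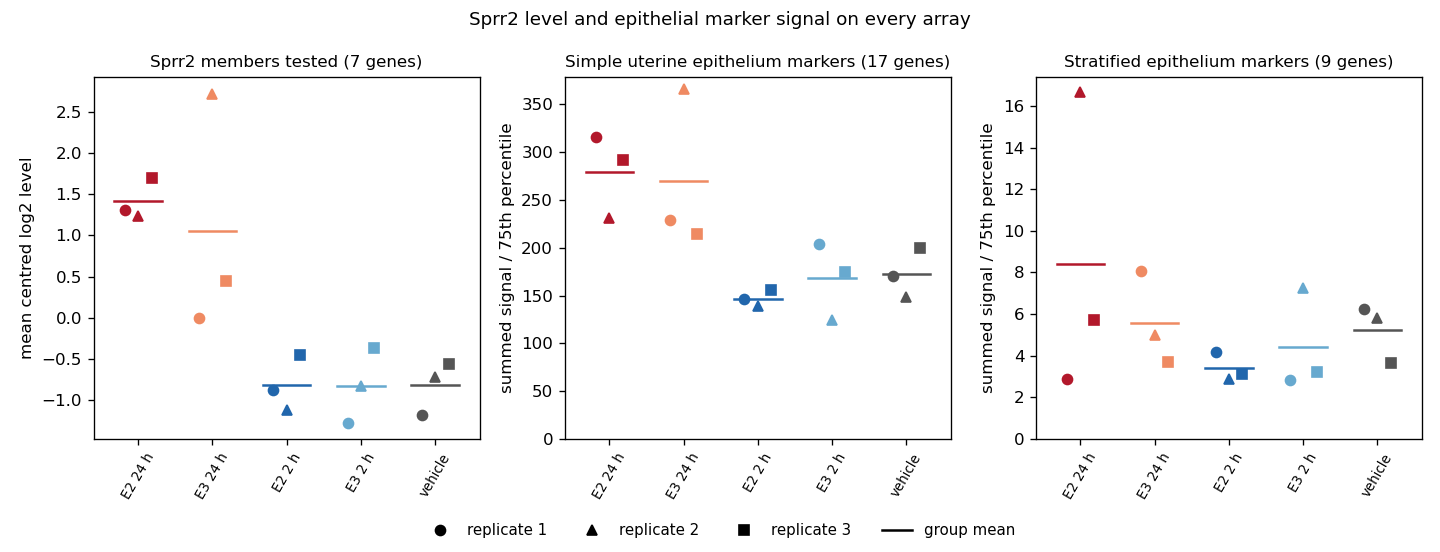
For every array by group, the mean centred log2 level of the 7 tested Sprr2 members (left), and the summed signal over the array's 75th percentile of 17 simple uterine epithelium markers (middle) and of 9 stratified epithelium markers (right); shapes are replicates and lines group means. Replicate 2 of E3 24 h (triangle) is the highest array in the left and middle panels, and 1 E2 24 h array, at 16.7, is the highest on the right.

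The other compartments of the uterus were read the same way. In E2 24 h uteri 4 of 8 smooth muscle markers and 5 of 10 stroma markers were higher and 0 and 2 lower. In E3 24 h uteri 6 and 5 were higher and 0 and 1 lower. Of all genes tested 20.9% were called higher and 22.4% lower in E2 24 h, and 9.6% and 10.7% in E3 24 h. Of the muscle calls in E3 24 h, Tagln (0.85, adjusted p = 0.0184) was lost without replicate 2 (0.69, adjusted p = 0.0648). Those of Actg2, Des and Cnn1 were kept. Of 10 leukocyte markers tested 0 were higher and 2 lower in E2 24 h uteri, and 3 were higher and 0 lower in E3 24 h uteri. The macrophage gene Adgre1 was higher by 1.38 (adjusted p = 0.0114), and by 1.32 without replicate 2 (adjusted p = 0.0356). The other calls, of Cd68 and Csf1r, were lost without replicate 2 (0.69, adjusted p = 0.112, and 0.67, adjusted p = 0.126). The summed leukocyte signal ran from 5.70 to 7.32 in E2 24 h, from 10.8 to 22.4 in E3 24 h and from 9.16 to 9.60 in vehicle, and replicate 2 of E3 24 h, at 20.0, was not the highest. A sum rests most on the brightest probes. The mean log2 level of these markers ran from -2.77 to -1.76 in E2 24 h, from -1.95 to -0.92 in E3 24 h and from -1.53 to -1.44 in vehicle.

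The 8 named genes most like the Sprr2 members over the 15 arrays, by Pearson correlation with their mean centred level, were Specc1 (0.97), Pmel (0.97), Muc4 (0.96), Serinc2 (0.96), Pla2g12a (0.96), Fer1l4 (0.96), Osbpl10 (0.96) and Scamp2 (0.95). Without replicate 2 of E3 24 h these correlations ran from 0.93 for Pla2g12a to 0.97 for Pmel. Muc4, a membrane-bound mucin, stood at 1.68, 1.21 and 2.19 in E2 24 h uteri and at -0.60, 2.96 and -0.87 in E3 24 h uteri, against -1.51, -1.22 and -0.97 in vehicle uteri. It had the same high replicate 2 of E3 24 h as the members. The genes were chosen for this likeness, so the correlations are a description.

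The promoters of the members are described by the motifs they hold, and 3 are printed, for the tested member with the largest E2 change at 24 h, for the one with an additional motif match and for the one that was not well above background. RefSeq promoters of GRCm38.p6, from 250 bases before to 50 after the transcript start, were found for 9 of the 10 members, as 11 promoters. An AP-1 site, TGAGTCA, stood in 8 of the 11, against 5.2% of the 32851 promoters in the table, and a TATA box, TATAAA, in 8 of 11, against 13.6%. An octamer, ATTTGCAT, which was noticed in these sequences and then searched for, stood in 7 of 11, against 1.74%. Both strands were searched and the motifs do not overlap each other in the member promoters. Capitals mark AP-1 and octamer matches, and all windows lie on the plus strand.
Sprr2f, chr3:92364986-92365086: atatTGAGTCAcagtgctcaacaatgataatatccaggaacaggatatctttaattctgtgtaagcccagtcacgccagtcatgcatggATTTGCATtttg
Sprr2k, chr3:92432382-92432484: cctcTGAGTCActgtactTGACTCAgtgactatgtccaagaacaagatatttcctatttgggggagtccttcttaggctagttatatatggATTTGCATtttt
Sprr2h, chr3:92385483-92385587: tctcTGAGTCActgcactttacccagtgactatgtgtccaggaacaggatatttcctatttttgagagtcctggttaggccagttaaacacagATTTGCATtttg

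Counted from the transcript start, the AP-1 match of Sprr2f began at -197, that of Sprr2k at -196 and that of Sprr2h at -198, and Sprr2k had a second match on the other strand at -182. Sprr2b, Sprr2d, Sprr2e and Sprr2i held the same pair, with the AP-1 match beginning between -195 and -193, and the octamer followed 85 to 89 bases after the AP-1 match in all 7. Both motifs upstream of the start were found in 0.113% of the promoters in the table. Sprr2h thus held the pair in its promoter while its probe was not well above background on any of the 15 arrays. The promoters of Sprr2a1, Sprr2a2 and Sprr2a3 had no match to any motif searched, and Sprr1a had AP-1 matches at -146 and -116 and no octamer.

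The palindromic oestrogen response element stood in 0 of the 11 windows, against 0.07% of all promoters, and its half-site GGTCA stood in 1, that of Sprr2f, against 40.5%. A match is a description of letters in a window and not a bound site, and neighbouring copies of a duplicated gene share sequence by descent.

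**Figure D5:**
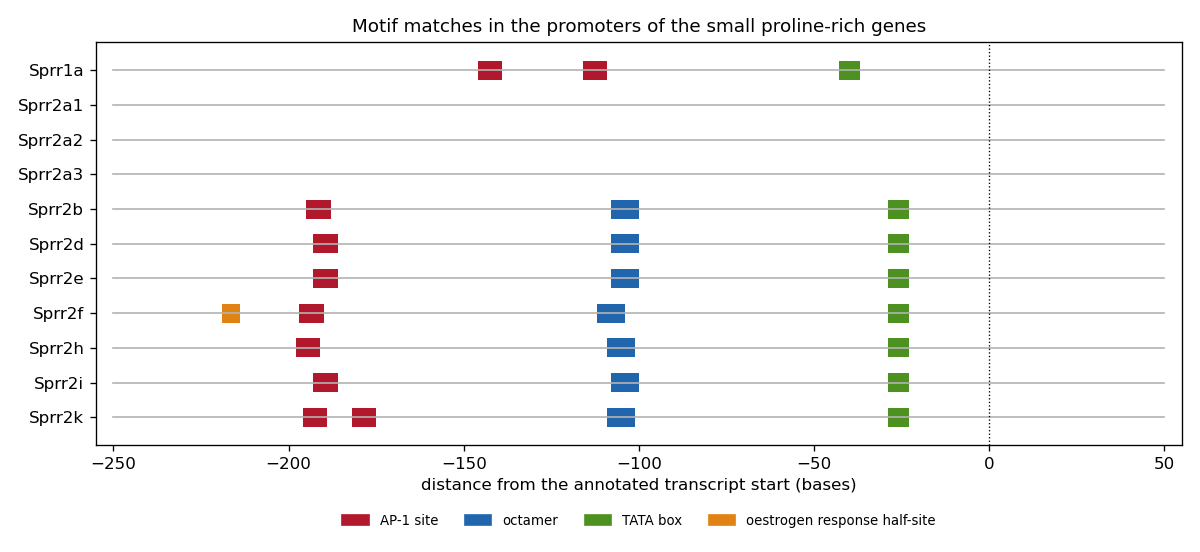
Positions of the motif matches in the 11 RefSeq promoters of the members, by distance in bases from the annotated transcript start (dotted line); grey lines are the 300-base windows searched and coloured boxes the matches. The 7 Sprr2 promoters with matches line up, the 3 Sprr2a windows, placed by their annotated starts, have none, and the half-site stands in Sprr2f alone.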

How the data were processed

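Each deposited file holds linear intensity, computed per the file headers by Feature Extraction 9.5.3.1 (9.5 per the submitters' processing notes) with background subtraction, detrending within the array, and a surrogate for low values, but no normalization between arrays. Per the labels' protocols 500 ng of total RNA was labelled with Cy3. The deposited value table equalled this signal. Flagged spots were left out and repeated probes averaged. From log2 of the deposited signal the array's 75th percentile over non-control probes was subtracted. The brightest probe stood for a gene, which entered the test where all 3 arrays of some group were well above background there. Using limma 3.58.1 (R 4.3.3), 1 mean per group was estimated from the 15 arrays, with Benjamini-Hochberg adjustment over 20302 genes, in 9 comparisons, and was tested on simulated data. Arrays give no counts, and 3 per group limit the precision. Named genes are all members, the other Sprr genes, up to 4 called genes of a list per comparison and the 8 most alike. Members and lists were chosen with earlier results of these data known. Alternatives in scaling, background, filter, probe, threshold, variance, slide, scan day and array are described in the closing section.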

Additional observations from a re-analysis of the deposited data

Results flagged for a closer look

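Among the genes read beside the members, 2 had an E2 minus E3 difference at 24 h that differed from that at 2 h by the interaction test of limma over all genes tested. They were 1 of 12 S100 genes and 1 of 10 leukocyte markers tested, and 5.99% of all genes tested were called. None was called among the tested genes of the cornified envelope, transglutaminase, simple epithelium, stratified epithelium, stroma and smooth muscle lists. For S100a16, an S100 gene, the difference of the differences was 0.63 on the log2 scale and just under the threshold (adjusted p = 0.0498). For Adgre1, a macrophage gene, it was -1.78 (adjusted p = 0.0310). No member of the small proline-rich family had such a difference with all arrays.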

How the results depend on the processing

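Over 33 or 34 alternatives per comparison with vehicle (up to 4 of them chosen after seeing the data), the count of members called in E2 24 h against vehicle, 7 of 8, fell to 4 at an adjusted p under 0.01. For E3 24 h against vehicle, 6 of 8, it was 2 with no filter on dim probes, 0 at an adjusted p under 0.01, 0 with only the groups of the comparison, 3 with slide as a random block, 0 with scan day as a fixed block, 3 on scan day 1 alone and 2 without both arrays of slide 2. For E2 24 h against E3 24 h, 0 of 8, it was 5 on scan day 1 alone, 5 without both arrays of slide 2, 1 with Sprr2a at its dimmer probe and 6 with that probe and without E3 24 h replicate 2. For E2 24 h against E2 2 h, 6 of 8, it was 2 at an adjusted p under 0.01. For E3 24 h against E3 2 h, 6 of 8, it was 2 at an adjusted p under 0.01, 0 with only the groups of the comparison, 3 with a fixed slide term, 2 with a fixed scan day term and 2 on scan day 1 alone. For E2 2 h against vehicle, 0 of 8, it was 1 with quantile normalization, 1 with only the groups of the comparison, 1 on scan day 1 alone, 1 without slide 2, 1 without the E3 24 h group, and 2 with the dimmer probe and without E3 24 h replicate 2. For E3 2 h against vehicle, 1 of 8, it was 0 at an adjusted p under 0.01 and 2 with that probe and without that array. The change of the E2 minus E3 gap, 0 of 8, was called in 1 on scan day 1 alone, 1 without slide 2, and 3 with that probe and without that array. The causes were not tested. Leaving out each array in turn gave 5 to 7 for E2 24 h against vehicle, 0 to 7 for E3 24 h against vehicle, 0 to 5 for E2 24 h against E3 24 h, 2 to 7 and 2 to 6 for 24 h against 2 h under E2 and under E3, 0 to 2 and 0 to 1 for E2 2 h and E3 2 h against vehicle, 0 to 0 for E2 2 h against E3 2 h, and 0 to 2 for the gap. The sign turned in a called value for Sprr2a under quantile normalization, to -0.27 in E2 24 h against E2 2 h, -0.36 in E2 24 h against vehicle and -0.38 in E3 24 h against vehicle, for Sprr2a at its dimmer probe in E2 24 h against E3 24 h, to 2.39 (3.47 without E3 24 h replicate 2, where E3 2 h against vehicle was 0.75 and the gap 3.84), and for Sprr2k in E2 24 h against E3 24 h, to 0.90 on scan day 1 alone and 0.83 without E3 24 h replicate 2, with or without E2 2 h replicate 1 (-0.51 to 0.83 over the arrays left out). Scaling by the array median moved the median change of all genes in E2 24 h against vehicle to 0.20, against -0.02 with the 75th percentile, and the share of its calls that were higher to 67.6%, against 48.3%, with 70% against 47.2% for E3 24 h.

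Replicate numbers stand in the labels, but same-numbered arrays did not deviate together, with correlations from -0.22 to 0.21 over 30 pairs and 7 of them over 0.1. With replicate number as a block the counts of members called stayed at 7 for E2 24 h against vehicle, 6 for E3 24 h against vehicle, 0 for E2 24 h against E3 24 h, 0 for E2 2 h against vehicle, 1 for E3 2 h against vehicle, 0 for E2 2 h against E3 2 h, 6 and 6 for 24 h against 2 h, and 0 for the gap. Counts of all genes called moved by over 1.5 times in 5 comparisons with the filter and threshold kept. E3 24 h against vehicle gave 4129, and 9 with only its groups, 2456 with slide as a random block, 2326 with a fixed scan day term, 2269 on scan day 1 alone, 2185 without slide 2, 2266 without E3 24 h replicate 2, and 1387 and 1464 without vehicle replicate 1 or 2. E2 24 h against E3 24 h gave 3176, and 360 with only its groups, 0 with a fixed slide term, 1815 without E2 24 h replicate 1 or 2 and 1952 without E3 24 h replicate 3. E3 24 h against E3 2 h gave 10024, and 143 with a fixed slide term. The gap gave 1217, and 0 with a fixed slide term, 188 with a fixed scan day term and 418 to 2194 over the arrays left out. E2 2 h against E3 2 h gave 0, and at most 1. Sprr2h and, at 2 h, Sprr2d were limited by signal over background, and the vehicle signals of Sprr2d were low.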
